A study of Mus musculus with 4 samples.

Results

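The contractile and actomyosin genes described here are Acta2, Cald1, Tagln, Tpm1, Tpm2, Cnn1, Myl9, Myh9, Myh11 and Mylk, 10 of 32285 genes counted in single cells of the hyaloid vessels of the mouse eye. They were chosen by name as parts of the contractile machinery, not by a measured value, although earlier results of these data were known. All 10 symbols were found in the gene list of these data. Vitreous bodies of mice at postnatal day 6 were pooled by genotype into 1 cell suspension of 7 Gpr124 fl/fl pups and 1 of 9 Gpr124 dEC/dEC pups. Gpr124 dEC/dEC pups carried both floxed Gpr124 alleles and VECad-Cre-ERT2, a tamoxifen-inducible Cre under an endothelial promoter, and Gpr124 fl/fl littermates carried the floxed alleles without Cre. Pups of both genotypes received tamoxifen after birth, so the floxed alleles and the drug were common to both groups, and the pericytes of neither group were targeted by the Cre. Each suspension filled a pair of plates of 384 wells, one gated on CD31 and the other on PDGFRB, although some CD31-gated wells were also placed in the PDGFRB-gate plate of Gpr124 dEC/dEC.

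In SORT-seq, each well carries its own barcode and each transcript a random tag (UMI), so that distinct tags count transcripts, read near their 3′ end. The 4 plates held 108059 (Gpr124 fl/fl, CD31 gate), 128082 (Gpr124 fl/fl, PDGFRB gate), 51972 (Gpr124 dEC/dEC, CD31 gate) and 174645 UMIs (Gpr124 dEC/dEC, PDGFRB gate) of mouse genes. Of 1536 wells, 32 passed 1000 to 8000 UMIs, a mitochondrial share under 10% and the marker rule of the study. The rule was rebuilt here from the study's description, and the number of pericytes it left in each genotype differs from the study's own, so the cells are not the same set. Endothelial cells had Cldn5 (a tight junction gene) and no Pdgfrb UMIs, and pericytes had Pdgfrb (the PDGF-B receptor of mural cells) and no Cldn5 UMIs. The 11 endothelial cells held 31048 UMIs (1104 to 6901 per cell) and the 21 pericytes 80460 (1309 to 7222 per cell). The class labels held against markers the rule did not use: 15 endothelial genes took 97.9 UMIs per 10000 in the endothelial cells and 10.1 in the pericytes, and 12 pericyte genes took 14.5 and 163. The same 384 barcodes were used in every plate. In 10 of the 32 cells, 3 endothelial and 7 pericytes, the well with that barcode in another plate also held at least 1000 UMIs, and values without these cells are given beside the results they bear on.

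Smooth muscle contracts when myosin II heads pull on actin filaments, and mural cells of small vessels build the same machinery in varying amounts. Acta2 encodes the smooth muscle actin of the thin filament. Tpm1 and Tpm2 encode tropomyosins, Cald1 caldesmon, Cnn1 calponin and Tagln transgelin, which lie on the actin filament and regulate or stabilise it. Myh11 encodes the smooth muscle myosin heavy chain and Myh9 a non-muscle heavy chain used by most cells. Myl9 encodes the regulatory light chain of myosin, and Mylk the calmodulin-dependent kinase that phosphorylates it. Vascular smooth muscle is known for high Acta2, Tagln, Myh11 and Cnn1, whereas capillary pericytes usually carry less of them.

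Many contractile genes are controlled by serum response factor, which binds the CArG box, so their promoters were searched for it. RefSeq promoter windows (GRCm38.p6) of 250 bases upstream of the start were at hand for 8 of the 10 genes. Tagln and Myh11 had no window and were not searched. The strict CArG box was found in 1 of the 8 genes, Myl9, and in 1.47% of 32851 promoters. Acta2 and Myl9 each held 2 boxes when 1 G or C was allowed among the inner bases, a search added after the strict one. With that allowance, 8.59% of all promoters held at least 1 box and 0.670% held 2 or more. The 4 sites are shown because they are the only such matches among the windows of these genes, with the box in capitals and 10 bases on each side. Distances are counted from the RefSeq start. The annotation used for the gene positions here starts Acta2 farther upstream, so that by those positions both Acta2 sites lie inside the gene.
Acta2, first base 84 upstream, chr19:34255438-34255467, minus strand: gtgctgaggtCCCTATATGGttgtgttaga
Acta2, first base 34 upstream, chr19:34255388-34255417, minus strand: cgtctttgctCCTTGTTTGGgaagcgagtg
Myl9, first base 161 upstream, chr2:156775293-156775322, plus strand: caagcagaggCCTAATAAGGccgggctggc
Myl9, first base 99 upstream, chr2:156775355-156775384, plus strand: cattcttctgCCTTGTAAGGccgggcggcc
A match is a run of letters and was not tested for binding.

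The question of the class comparison was which of these genes mark the pericytes of the regressing hyaloid bed. Pericytes carried the contractile transcripts and endothelial cells carried few of them: the 10 genes together took 80.3 UMIs per 10000 in the pericytes (646 UMIs) and 21.3 in the endothelial cells (66 UMIs). The log2 ratio was 1.92 (95% counting interval 1.55 to 2.31). The sums per plate were 83.6 ± 7.09 in pericytes (SD, n = 3 plates) and 21.8 ± 3.86 in endothelial cells (SD, n = 4 plates). Pericytes were held by 3 plates only, since the Gpr124 dEC/dEC CD31-gate plate retained none. Below, values per plate follow the order Gpr124 fl/fl CD31 gate, Gpr124 fl/fl PDGFRB gate and Gpr124 dEC/dEC PDGFRB gate for pericytes, and Gpr124 fl/fl CD31 gate, Gpr124 fl/fl PDGFRB gate, Gpr124 dEC/dEC CD31 gate and Gpr124 dEC/dEC PDGFRB gate for endothelial cells.

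Sums per class and plate were tested across all genes with edgeR's quasi-likelihood test and Benjamini-Hochberg adjustment. Its filter on low counts kept 148 genes, of which 36 were higher in pericytes (24.3%) and 15 higher in endothelial cells (10.1%). Of the 10 contractile genes, 4 had enough UMIs to be tested (Acta2, Cald1, Myh9 and Mylk), and all 4 were higher in pericytes. Endothelial sums of Acta2, Cald1 and Mylk were small in every plate, so these genes passed the filter through the pericytes, and the count of 4 is given as a description only. The other 6 are given by their UMIs and counting intervals. Among genes with at least 10 UMIs, every pericyte sum lay above every endothelial sum for 12.7% of 2689 genes (the reverse held for 5.69%). The same order was found for 7 of the 8 contractile genes with that many UMIs. Tagln, Tpm2 and Myl9 reached that number through the pericytes (29, 11 and 81 UMIs, against 0, 0 and 2), so this count is also a description only. For a single gene, an exact permutation test over 4 and 3 plates cannot go below a two-sided p of 0.0571. Plates of 1 genotype came from 1 suspension, so p-values measure the spread between plates, not between mice.

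**Figure D1:**
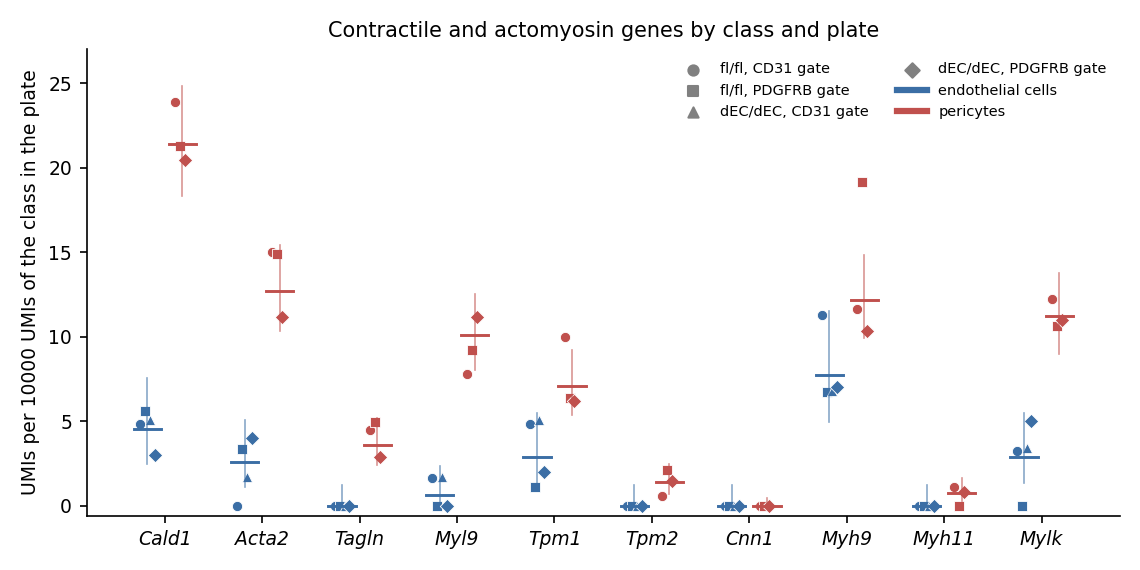
UMIs per 10000 of each gene in endothelial cells (blue, 4 plates) and pericytes (red, 3 plates); each symbol is a plate, the short horizontal line the value over all cells of the class and the thin vertical line its 95% counting interval. Acta2, Cald1, Tagln, Tpm1, Tpm2, Myl9 and Mylk have every pericyte plate above every endothelial plate, Myh9 and Myh11 do not, and Cnn1 is at 0 in both classes.

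Acta2 (ENSMUSG00000035783, chr19:34241090-34255590, minus strand; positions of all genes are those of GRCm38) took 14.99, 14.9 and 11.2 UMIs per 10000 in the pericytes of the 3 plates. In the endothelial cells it took 0, 3.35, 1.69 and 4.02. Both classes stood apart, and the lowest pericyte plate was above the highest endothelial plate. The log2 fold change was 2.78 (SE 0.54, edgeR adjusted p = 2.81e-06). Endothelial cells held 8 Acta2 UMIs in all, and where these lie is described with the wells of low depth below.

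Cald1 (ENSMUSG00000029761, chr6:34598500-34775473, plus strand), which holds back the actin-myosin contact until calcium rises, had the most UMIs of the group in pericytes. It took 23.9, 21.3 and 20.5 UMIs per 10000 in pericytes and 4.82, 5.58, 5.07 and 3.02 in endothelial cells. The pericyte plates lay close together and well above the endothelial ones. The log2 fold change was 2.68 (SE 0.40, edgeR adjusted p = 6.96e-10), and Cald1 was the only member still tested when the 10 cells with shared barcodes were left out (2.92, adjusted p = 0.00152).

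Tagln (ENSMUSG00000032085, chr9:45929619-45936058, minus strand) was seen in pericytes and not in endothelial cells. It took 4.44, 4.97 and 2.90 UMIs per 10000 in pericytes, 29 UMIs in all, and had 0 of 31048 UMIs in endothelial cells. Set against a floor of 3 UMIs over the endothelial group, the pericyte level was 3.73-fold the floor, and the exact 95% interval of the ratio starts at 2.84-fold. The 3′ end of Tagln is overlapped by Pcsk7 on the other strand, and the strand setting of the counting is not given in the sources used here, so a share of these reads could belong to Pcsk7.

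The tropomyosins were lower counts. Tpm1 (ENSMUSG00000032366, chr9:67022590-67049406, minus strand) took 9.99, 6.39 and 6.205 UMIs per 10000 in pericytes against 4.82, 1.12, 5.07 and 2.01 in endothelial cells, with a log2 ratio of 1.29 (counting interval 0.26 to 2.49). The gap between the lowest pericyte and the highest endothelial plate was smaller than the spread within either class. Tpm2 (ENSMUSG00000028464, chr4:43514711-43523765, minus strand) had 11 UMIs in pericytes and 0 in endothelial cells, and the interval of its ratio includes equal levels. Cnn1 (ENSMUSG00000001349, chr9:22099216-22109630, plus strand), the calponin of differentiated smooth muscle, had 0 UMIs in both classes. At the depth of the pericytes, the floor of 3 UMIs is 3 of 80460.

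On the myosin side, Myl9 (ENSMUSG00000067818, chr2:156775420-156781658, plus strand) took 7.77, 9.22 and 11.2 UMIs per 10000 in pericytes. In endothelial cells it took 1.61, 0, 1.69 and 0, which is 2 UMIs in all. The log2 ratio was 3.97 (counting interval 2.07 to 7.04). Mylk (ENSMUSG00000022836, chr16:34745210-35002420, plus strand), the kinase of that light chain, took 12.2, 10.6 and 10.96 in pericytes and 3.21, 0, 3.38 and 5.03 in endothelial cells. Its log2 fold change was 2.35 (SE 0.56, edgeR adjusted p = 0.000197), and its 3′ end is overlapped by the antisense gene Gm21691.

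Myh9 (ENSMUSG00000022443, chr15:77760587-77842175, minus strand) was the member with most transcripts in endothelial cells, 24 UMIs. It took 11.7, 19.2 and 10.3 UMIs per 10000 in pericytes and 11.2, 6.70, 6.75 and 7.04 in endothelial cells, so the classes overlapped. The log2 fold change was 1.16 (SE 0.42, edgeR adjusted p = 0.0198), and the call was lost with DESeq2 (adjusted p = 0.0523), without the Gpr124 dEC/dEC CD31-gate plate (adjusted p = 0.0580), without the low-count filter (adjusted p = 0.0883), without the Gpr124 fl/fl PDGFRB-gate plate (adjusted p = 0.228) and with library totals in place of TMM factors (adjusted p = 0.137). Myh11 (ENSMUSG00000018830, chr16:14194535-14291372, minus strand), the heavy chain of smooth muscle, had 6 UMIs in pericytes and 0 in endothelial cells, too few to show a difference at this depth.

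TMM scaling set the pericyte sums higher than library totals did. With totals, the median log2 fold change of the 148 genes was -0.44, 23 genes were higher in pericytes and 46 in endothelial cells, and 3 of the 4 members were still called. With the plate as a block, 21.6% of the genes were higher in pericytes and 9.46% in endothelial cells, and with DESeq2 18.2% and 6.08%; the 4 members were called by the first and 3 of them by the second. In a fit without the low-count filter, 188 of 10829 genes were higher in pericytes (1.74%) and 50 in endothelial cells (0.462%), the former with 5 members, Acta2, Cald1, Tagln, Myl9 and Mylk. In that edgeR fit Tagln (adjusted p = 0.00158) and Myl9 (adjusted p = 7.81e-06) were called, while Myh9 (adjusted p = 0.0883), Tpm1 (adjusted p = 0.0512), Tpm2 (adjusted p = 0.203) and Myh11 (adjusted p = 0.457) were not. Nearly all UMIs of Tagln and Myl9 came from the pericytes, so their calls are a description only. The median log2 fold change of all genes was 1.15 in that fit, so its fold changes leaned towards the pericytes as a whole.

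The wider actomyosin system differed less between the classes than these members. In 7 lists of related genes, 40 of 45 genes had a UMI in the retained cells, 8 could be tested, 3 were higher in pericytes (beside 24.3% of all 148 genes), none was higher in endothelial cells and 5 were not called. The lists were fixed with earlier results of these data known. Together, the 45 genes took 228 UMIs per 10000 in pericytes and 194 in endothelial cells.

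Among the other actins, the cytoplasmic Actb was called higher in pericytes (log2 fold change 0.84, SE 0.29, edgeR adjusted p = 0.0136). Its UMIs per 10000 were 44.7 in pericytes and 36.4 in endothelial cells, and the counting interval of that ratio, -0.01 to 0.62, includes equal levels. Cytoplasmic Actg1 was at 16.4 and 19.6 and was not called. Cardiac actin Actc1 was at 6.59 and 6.76, 53 and 21 UMIs, in cells of a tissue that is not heart muscle.

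Both myosin light chains that could be tested were higher in pericytes. Myl6, an essential light chain, took 26.97 UMIs per 10000 in pericytes and 16.4 in endothelial cells (log2 fold change 1.20, SE 0.30, edgeR adjusted p = 0.000332). Myl12a, a non-muscle regulatory light chain, took 11.8 and 6.76 (log2 fold change 1.20, SE 0.45, edgeR adjusted p = 0.0245).

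Of 5 other thin filament regulators, only Tpm4 could be tested. Tpm4 took 11.6 UMIs per 10000 in pericytes and 10.6 in endothelial cells and was not called. Cnn2 took 8.45 and 1.93 (counting interval of the log2 ratio 0.93 to 3.62) and Tagln2 3.98 and 0.966 (0.36 to 4.39), both untested in the fit. Cnn3 took 3.85 and 2.58, with an interval that includes equal levels. Tpm3, a tropomyosin of many cell types, went the other way with 1.24 and 4.19 (10 and 13 UMIs, interval of the log2 ratio -3.10 to -0.45), and is named although its UMIs were below the number set for naming. Of the calponins, pericytes thus held UMIs of Cnn2 and Cnn3 and none of Cnn1.

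In the list of the phosphatase that reverses the kinase, RhoA signaling and calmodulin, no gene was called. Rhoa was at 4.72 UMIs per 10000 in pericytes and 4.51 in endothelial cells, Calm2 at 3.85 and 3.54, and Calm3 at 4.60 and 2.25, each with an interval that includes equal levels. Among crosslinkers and adhesion proteins, Actn4 and the intermediate filament gene Vim were tested and not called. Actn4 was at 9.45 in pericytes and 9.02 in endothelial cells, and Vim at 8.95 and 18.04, where the counting interval of the log2 ratio (-1.54 to -0.48) leaves out equal levels in the endothelial direction. Vcl, which ties actin to integrin adhesions, was at 5.47 and 0.966 (interval of the log2 ratio 0.86 to 4.83), and Flna, a filamin that crosslinks actin, at 6.84 and 2.58 (0.33 to 2.69).

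Transcripts of other proteins known from smooth muscle were few. The 8 genes of that list took 6.59 UMIs per 10000 in pericytes and 5.15 in endothelial cells, and none had 30 UMIs. Des, the muscle intermediate filament also found in pericytes, had 23 UMIs in pericytes and 1 in endothelial cells, while Lmod1 and Pln had 0 in both. Csrp1, which is not restricted to muscle, held 11 of the endothelial UMIs (3.54 per 10000, against 2.11 in pericytes). Serum response factor Srf itself had 0 UMIs in both classes, Myocd 1, Mrtfa 7 and Mrtfb 5. At this depth no class difference of these 4 regulators was detectable.

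Markers of other cell types gave the following levels. Skeletal muscle, lens, melanocyte and astrocyte lists had 0 UMIs in the retained cells. Fibroblast genes took 17.9 UMIs per 10000 in pericytes and 1.93 in endothelial cells, with 4 of 8 genes seen. The collagens Col1a2 (89 UMIs) and Col3a1 (51) made up most of the pericyte value, and Pdgfra, Dcn, Lum and Mfap5 were at 0. Macrophage genes took 1.86 and 0.966. Erythroid genes took 2.36 and 76.0, and 233 of the endothelial UMIs came from the Gpr124 fl/fl PDGFRB-gate plate. Genes induced by dissociation took 17.2 in pericytes and 6.12 in endothelial cells. Their part in the contractile levels was not tested.

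In single pericytes, the abundant members were seen in nearly every cell and those of few UMIs in fewer. Cald1 had a UMI in 21 of 21 pericytes, Myl9 and Mylk in 20, Myh9 in 19, Acta2 in 18, Tpm1 in 17, Tagln in 11, Tpm2 in 7, Myh11 in 4 and Cnn1 in 0. In 11 endothelial cells the counts were 7 for Cald1, 2 for Myl9, 5 for Mylk, 9 for Myh9, 4 for Acta2, 6 for Tpm1 and 0 for Tagln, Tpm2, Myh11 and Cnn1. Thinned to 1000 UMIs per cell, the expected shares for Cald1 were 87.3% of pericytes and 33.7% of endothelial cells. They were 62.3% and 25.2% for Acta2, 25.5% and 0% for Tagln, and 65.0% and 55.7% for Myh9. The median depth was 3750 UMIs in pericytes and 3020 in endothelial cells.

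The spread of counts between pericytes was set against counting error. A variance over mean of 1 is what counting alone gives. Cald1 (0.943), Tpm1 (1.03) and Myl9 (1.18) were near it, Mylk was at 1.32 and Myh9 at 1.74, Tpm2 was at 1.21, Tagln at 1.94, Myh11 at 2.10 and Acta2 at 3.34. Pericyte Acta2 ran from 0 to 49.8 UMIs per 10000 with a median of 12.8, and Cald1 from 3.51 to 35.2 with a median of 19.2. Among the 14 pericytes without a shared barcode, Acta2 was still at 3.03 and Cald1 at 1.13. The pericyte marker Rgs5, a regulator of G protein signaling, was at 13.1, but the measure grows with the level of a gene and Rgs5 had 723 UMIs in these cells against 102 of Acta2, so the values do not rank them.

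The joint presence of Acta2 and Tagln varied among pericytes. Both genes had UMIs in 10 pericytes, Acta2 alone in 8, Tagln alone in 1 and neither in 2. Of the 4 genes Tagln, Tpm2, Myh11 and Cnn1, at least 2 were seen in 4 pericytes and 3 in 1. Rgs5 was present in 21 of 21 pericytes with 15 to 57 UMIs, and in 20 of 21 the pericyte list had more UMIs than the 10 contractile genes. Of the 1314 UMIs of that list, 723 were Rgs5. Since every pericyte held Rgs5, its presence does not tell pericytes with smooth muscle genes from the others. The 4 pericytes highest in Acta2 held 10 to 16 UMIs and the next one 9, and 3 of the 4 had a shared barcode. Acta2 was at 19.6 UMIs per 10000 in the 7 pericytes with a shared barcode and at 9.17 in the 14 others.

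**Figure D2:**
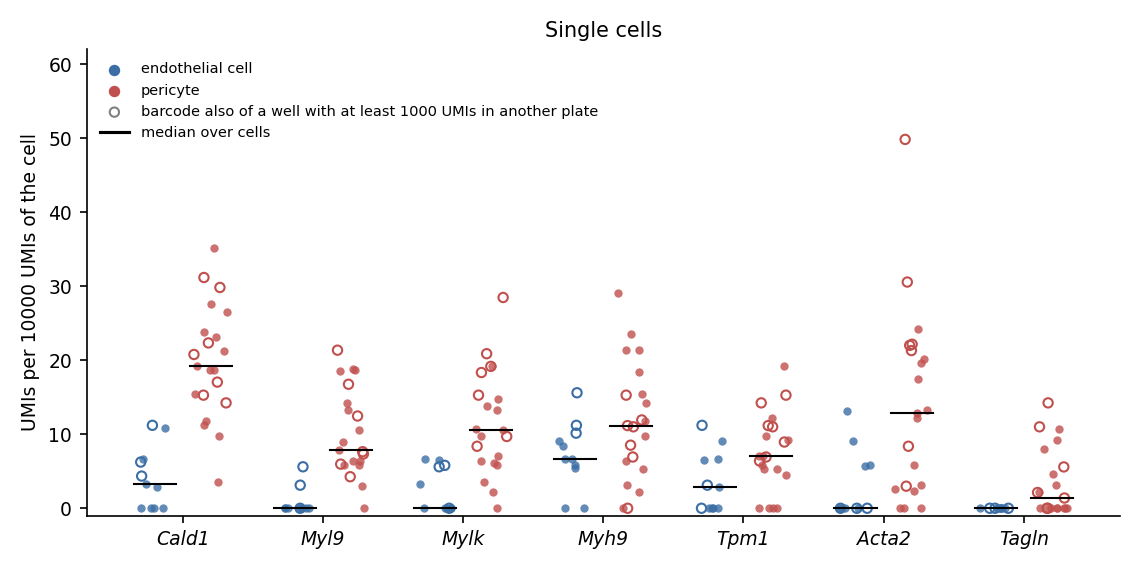
UMIs per 10000 of the cell for 7 contractile genes in 11 endothelial cells (blue) and 21 pericytes (red); open circles are cells whose barcode also belongs to a well of at least 1000 UMIs in another plate, and black lines are medians over cells. Cald1 runs from 3.51 to 35.2 in pericytes without a cell at 0, whereas Acta2 runs from 0 to 49.8, and Tagln is at 0 in every endothelial cell.

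Over the 21 pericytes, on log2(UMIs per 10000 + 1), Acta2 had a Pearson r of 0.42 with Tpm1 (Spearman's rho 0.51), 0.22 with Tagln (rho 0.22), -0.43 with Cald1 (rho -0.50) and -0.38 with Myh9 (rho -0.41). Cald1 and Mylk had an r of 0.62 (rho 0.28). These cells share plates and suspensions and the counts are low, so the values are a description. Of 831 genes seen in 11 or more of the pericytes, the 5 most like Acta2 were Armcx3 (0.66), Pdha1 (0.59), Ptma (0.58), Calm3 (0.56) and Actc1 (0.52). Without the 2 most distant cells, Calm3 was at 0.30 and Actc1 at 0.68. For the other 9 genes summed, the 5 most alike were Lrrc58 (0.65), Gabarap (0.63), Tra2b (0.61), Ube3a (0.57) and Actb (0.57, or 0.12 without the 2 most distant cells). Actc1, cardiac actin, appears in the first group and not in the second.

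Outside the retained cells, Acta2 was high while several other members were low. In the 1478 wells below 1000 UMIs, Acta2 took 39.0 UMIs per 10000 (counting interval 36.4 to 41.6), 879 UMIs in 440 wells, against 9.86 in the 32 retained cells. The plates gave 44.2, 42.0, 37.0 and 31.5, so each of the 4 showed it. Tpm1 was also higher there (10.7 against 5.92). Cald1 (3.63 against 16.7), Myl9 (2.84 against 7.44), Myh9 (3.46 against 10.9) and Mylk (2.97 against 8.88) were lower there. Tagln (2.88 against 2.60) and Myh11 (0.576 against 0.538) had intervals that include equal levels.

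**Figure D3:**
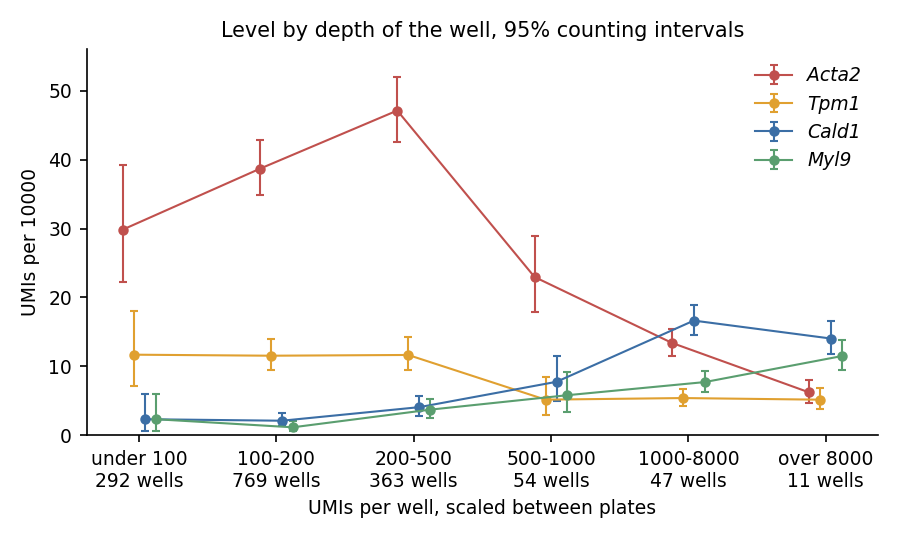
UMIs per 10000 of Acta2, Tpm1, Cald1 and Myl9 in all wells grouped by their UMIs, scaled between plates, before the mitochondrial and marker rules; bars are 95% counting intervals. Acta2 is highest, 47.1, in the 363 wells with 200 to 500 UMIs and falls to 6.23 in the 11 wells above 8000, while Cald1 goes from 2.34 below 100 UMIs to 16.6 between 1000 and 8000 and 14.04 above.

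Other genes were also higher in these shallow wells, and by the ratio of the levels Acta2 was 62nd of 487 genes. The following were looked up after their values were seen. Actc1 took 48.9 UMIs per 10000 there and 6.64 in the retained cells, the troponin gene Tnnt2 12.3 and 1.35, the atrial light chain Myl7 5.41 and 0.179, the embryonic globin Hbb-bh1 57.2 and 1.70, and Ptma, a nuclear protein gene of most cells, 157 and 23.7. In the 380 shallow wells with an Actc1 UMI, Acta2 took 93.2 UMIs per 10000 (86.1 to 100.7), and in the 1098 without one 15.2 (13.4 to 17.3). Acta2 and Actc1 are separate genes that encode near-identical proteins. Whether reads of one were counted for the other was not tested.

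The shallow-well Acta2 followed the well barcode from plate to plate. Between pairs of plates, over 350 to 365 barcodes with both wells below 1000 UMIs, the Pearson r of Acta2 UMIs was 0.49 to 0.66, that of Actc1 0.73 to 0.80 and that of Hbb-bh1 0.92 to 0.94. For Cald1 it was -0.04 to 0.23, for Myl9 -0.02 to 0.16, for Mylk -0.03 to 0.21 and for Tpm1 0.13 to 0.31. The pericyte marker Rgs5 was at 0.34 to 0.76 and Ptma at 0.27 to 0.41, so the likeness was not particular to Acta2. Cald1, Myl9 and Mylk had at most 82 UMIs in these wells, and so few counts keep r low. Actb, with 831 UMIs about as frequent as Acta2 with 879, was at 0.11 to 0.31. In 36 of 337 barcodes Acta2 had a UMI in the shallow well of every plate, and Actb in 2. Of the 6 pairs, 4 join a Gpr124 fl/fl and a Gpr124 dEC/dEC plate. Whether reads were shared between plates could not be settled from the deposited counts, so Acta2 values, and the genotype of cells on shared barcodes, carry that doubt.

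**Figure D4:**
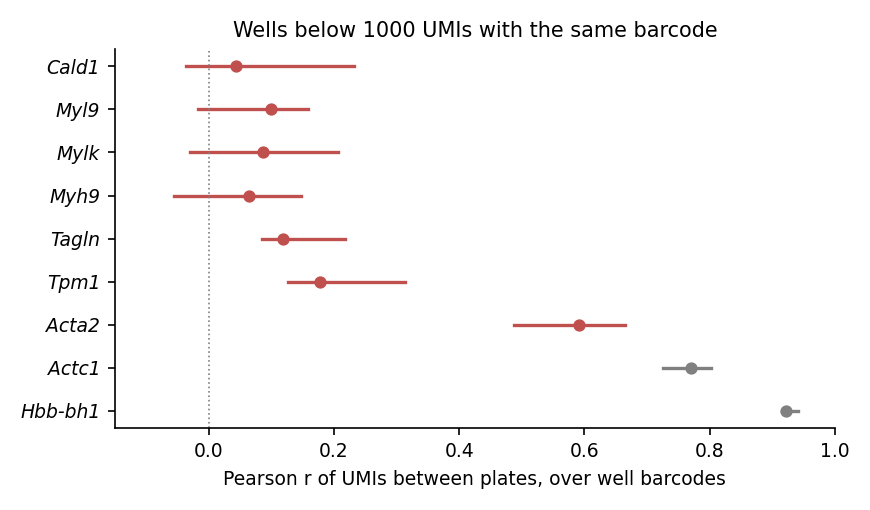
Pearson r between plates of a gene's UMIs in wells below 1000 UMIs that carry the same barcode; the line spans the lowest to the highest of 6 plate pairs and the point is their median, with contractile genes in red and 2 comparison genes in grey. Acta2 lies at 0.49 to 0.66, next to Actc1 at 0.73 to 0.80, and Cald1, Myl9, Mylk and Myh9 lie around 0.

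All 8 Acta2 UMIs of endothelial cells lay on such barcodes. Such barcodes were common, since 214 of all 384 barcodes held Acta2 in at least 1 shallow well. Of the 11 endothelial cells, 8 carried a barcode with Acta2 in a shallow well of another plate, and these held 8 Acta2 and 21 Actc1 UMIs. The other 3 held 0 Acta2 and 0 Actc1 of 13622 UMIs. Per well, Acta2 was at 0.595 UMIs in the shallow wells, 0.727 in endothelial cells and 4.86 in pericytes. The level per well in endothelial cells thus lay near that of the shallow wells, and the part of the barcode signal in it was not tested.

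Away from these barcodes, pericyte Acta2 rested on 1 cell. Acta2 took 12.5 UMIs per 10000 in the 18 pericytes on them and 13.4 in the 3 others, which held 17 UMIs (log2 ratio -0.09, counting interval -0.86 to 0.75). Of those 17 UMIs, 16 came from 1 cell of the Gpr124 dEC/dEC plate, which is among the 7 pericytes with a shared barcode, and the other 2 cells held 1. Among cells off these barcodes, Acta2 was at 13.4 in pericytes against 0 in endothelial cells, Cald1 at 20.5 against 5.87 and Myl9 at 10.2 against 0. Tagln had 1 UMI in these 3 pericytes (0.787 per 10000), beside 28 UMIs (4.13) in the 18 on the barcodes, and Myh11 had 0 beside 6.

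Wells set aside by the other filters varied widely, and were looked up after their values were seen. Of 5 wells removed for a mitochondrial share of at least 10%, 3 held 35, 24 and 16 Acta2 UMIs, which is 210, 193 and 216 per 10000. They also held 26, 17 and 11 Rgs5 UMIs, 3, 1 and 2 of Tagln, and 1 Actc1 UMI between them. The wells with 24 and 16 carry the same barcode, in plates of different genotypes, and that barcode held at least 1000 UMIs in the other plates too, with 11358 as the largest. The other 2 held 0 UMIs of all 10 genes. The 11 wells above 8000 UMIs took 6.23 Acta2 UMIs per 10000 together, less than the 12.7 of the retained pericytes, and 5 of them held 0 Acta2 and 7 held 0 Tagln. Of the 11, 3 had neither Pdgfrb nor Cldn5 and held 0 Acta2, and the 8 with Pdgfrb took 8.62 Acta2 UMIs per 10000. Among the latter, the one of 11358 UMIs, from the Gpr124 fl/fl CD31-gate plate, held 27 Tagln (23.8 per 10000), 43 Myl9 (37.9), 10 Tpm2, 6 Myh11 and 1 Cnn1 UMIs beside 12 Acta2 and 12 Rgs5. It held more Tagln, Tpm2 and Cnn1 UMIs than any retained cell.

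The genotype comparison asks whether loss of Gpr124 in endothelial cells goes with a change of the contractile genes, in pericytes or in the endothelial cells themselves, where Acta2 and Tagln are used as mesenchymal markers. With 1 suspension per genotype there is no replicate, and no test was made. Ratios are Gpr124 fl/fl over Gpr124 dEC/dEC, and intervals cover counting error only. Sums over cells join the level per cell with the number of cells that carry a gene, so the latter is given for Acta2 and Tagln.

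In pericytes the 10 genes took 87.5 UMIs per 10000 in Gpr124 fl/fl (281 UMIs, 9 cells) and 75.5 in Gpr124 dEC/dEC (365 UMIs, 12 cells). The log2 ratio was 0.21 (-0.02 to 0.44), and the interval includes equal levels. Each single gene with a ratio had an interval that includes equal levels. Acta2 was seen in 7 of 9 Gpr124 fl/fl and 11 of 12 Gpr124 dEC/dEC pericytes, and Tagln in 6 of 9 and 5 of 12. Of the 8 members with at least 10 UMIs, 0 passed a 2-fold difference in either direction. Of all 1915 genes with that many UMIs, 13.1% were at least 2-fold higher and 12.6% at least 2-fold lower in Gpr124 fl/fl. For 8 genes, a count of 0 does not set the members apart from these shares. Genes of few UMIs also pass 2-fold more easily by counting error. The median log2 ratio was 0.29 over these 8 members and 0.01 over the 1915 genes.

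By gene, Cald1 was at 22.7 UMIs per 10000 in Gpr124 fl/fl and 20.5 in Gpr124 dEC/dEC pericytes (log2 ratio 0.15, -0.31 to 0.60), and Mylk at 11.5 and 10.96 (0.07, -0.57 to 0.71). For these 2 genes, the intervals of the retained cells leave out a 2-fold difference. They do not for Cald1 without the cells on shared barcodes (0.51, -0.0584 to 1.07) or with thinned cells (0.0780, -0.87 to 1.01). Nor do they for Mylk at a mitochondrial limit of 5% (-0.52, -1.35 to 0.28) or with thinned cells (0.96, -0.24 to 2.21). With classes from the sorting gate, the Mylk interval (-1.12 to 0.28) also includes a 2-fold difference. So do both intervals without the cells on barcodes with Acta2 in other plates (Cald1 -1.03 to 1.57, Mylk -1.94 to 2.14). Acta2 was at 14.9 and 11.2 (0.42, -0.17 to 1.01) and Myl9 at 8.41 and 11.2 (-0.41, -1.13 to 0.28). Acta2 of the shallow wells was at 43.1 in the Gpr124 fl/fl plates and 33.6 in the Gpr124 dEC/dEC plates, the same direction as in the pericytes, and its part in the ratio was not tested. Tagln was at 4.67 and 2.90 with 15 and 14 UMIs (0.69, -0.46 to 1.85), and Tpm1 at 8.41 and 6.205 (0.44, -0.37 to 1.24).

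Myh9 was at 14.9 UMIs per 10000 in Gpr124 fl/fl and 10.3 in Gpr124 dEC/dEC pericytes (0.53, -0.07 to 1.13). Between the PDGFRB-gate plates alone, where 3 and 12 pericytes are compared, it was at 19.2 and 10.3 (0.89, 0.16 to 1.59), while the 6 pericytes of the Gpr124 fl/fl CD31-gate plate were at 11.7. The Gpr124 fl/fl plates thus differed more from each other than the lower of them did from the Gpr124 dEC/dEC plate. The summed genes had a ratio of 0.23 (-0.07 to 0.53) between the PDGFRB-gate plates.

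The pericyte ratios depended on which wells were admitted. With the wells above 8000 UMIs admitted, the log2 ratio of the 10 genes was 0.56 (0.40 to 0.72), and without the 1 well of 11358 UMIs among them 0.37 (0.19 to 0.55). Both intervals leave out equal levels, unlike that of the retained cells. Without the upper limit Myl9 turned from -0.41 to 0.90 (0.47 to 1.34) and Tpm2 from -0.22 to 1.22 (0.19 to 2.30), Tagln moved to 1.604 (0.84 to 2.41), Tpm1 to 1.099 (0.51 to 1.70) and Acta2 to 0.55 (0.0894 to 1.02). That 1 well carried much of this for Myl9, Tpm2, Tagln and Tpm1. Without it, Myl9 was at 0.42 (-0.0811 to 0.92) and Tpm2 at 0.65 (-0.59 to 1.87). Tagln was then at 0.59 (-0.40 to 1.55) and Tpm1 at 0.70 (0.0275 to 1.36). Acta2 did not fall without the well and was at 0.62 (0.14 to 1.11). Without the cells on shared barcodes, the sum was at 0.35 (0.0576 to 0.65) and Myh9 at 0.73 (0.0314 to 1.44).

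Other limits moved Acta2, Myh9 and the sum. With totals not scaled between plates, the sum was at 0.38 (0.15 to 0.60), Acta2 at 0.75 (0.16 to 1.34) and Myh9 at 0.70 (0.12 to 1.28). At a mitochondrial limit of 5% the sum was at 0.0487 (-0.23 to 0.32), Acta2 turned to -0.18 (-0.96 to 0.58) and Myh9 was at 0.82 (0.0927 to 1.56). Acta2 was at 0.76 (0.0818 to 1.44) without the largest cell of each class and genotype, and at 0.64 (0.0902 to 1.18) with a lower limit of 500 UMIs. Under these limits, the interval of Acta2, Myh9 or the sum included equal levels in some settings and not in others.

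In endothelial cells the 10 genes took 20.4 UMIs per 10000 in Gpr124 fl/fl (31 UMIs, 5 cells) and 22.1 in Gpr124 dEC/dEC (35 UMIs, 6 cells). The log2 ratio was -0.11 (-0.86 to 0.63), 0.12 (-1.01 to 1.27) within the CD31-gate plates and -0.34 (-1.40 to 0.69) within the PDGFRB-gate plates. Acta2 was counted 3 times in Gpr124 fl/fl cells and 5 times in Gpr124 dEC/dEC cells (-0.67, -3.36 to 1.69), and Tagln 0 in both. A floor of 3 UMIs is 3 of 15184 UMIs in the Gpr124 fl/fl and 3 of 15864 in the Gpr124 dEC/dEC cells, so a Tagln level below it was not detectable. Myh9 had 13 and 11 UMIs (0.30, -0.97 to 1.61), Cald1 8 and 6 (0.48, -1.24 to 2.28) and Mylk 2 and 7 (-1.74, -5.05 to 0.65). Of 2 members with at least 10 UMIs, 0 passed a 2-fold difference, beside 12.6% of 538 genes higher and 17.8% lower in Gpr124 fl/fl.

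**Figure D5:**
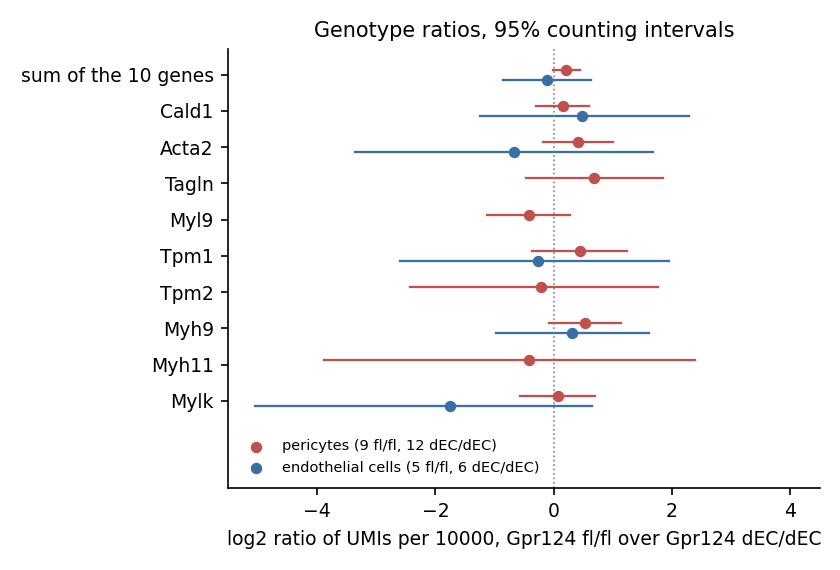
Log2 ratio of UMIs per 10000, Gpr124 fl/fl over Gpr124 dEC/dEC, for the summed genes and each gene with at least 6 UMIs, in pericytes (red) and endothelial cells (blue); lines are 95% counting intervals and the dotted line marks equal levels. Every interval crosses the dotted line, from -0.02 to 0.44 for the summed genes in pericytes to -5.05 to 0.65 for Mylk in endothelial cells.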

How the data were processed

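The authors aligned SORT-seq reads to GRCm38 with STARsolo 2.7.11b and deposited unscaled estimated counts (UMIs of each gene in each well). Here these values were rounded to whole UMIs, spike-ins and rows without a gene were left out, and wells were filtered as the study's methods describe (totals scaled to the highest plate median, 1000 to 8000 UMIs, mitochondrial share under 10%). Doublets were not called, since 32 cells are too few. Sums per class and plate were tested with edgeR 4.0.16 (glmQLFit, glmQLFTest, TMM, filterByExpr, Benjamini-Hochberg, threshold 0.05), with DESeq2 1.42.0 as an alternative, in R 4.3.3. Tested on simulated data with the plate totals of this comparison, edgeR called 58 of 58 changed genes (log2 fold change 2) and 4 of 87 unchanged ones. The simulation changed equal numbers of genes up and down, drawn mostly from abundant genes, with a fixed spread not taken from the data. It therefore cannot vouch for the calls made here, which also depended on the scaling. Genotypes were compared by exact conditional binomial intervals and sums by exact Poisson intervals, at 95%, for counting error only. Thinning kept 1000 UMIs per cell. Gene positions come from the GENCODE annotation of GRCm38. The gate of each plate was taken from the study's supplement.

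All 10 members are described in the class comparison, and only some of them by name in the other comparisons. Genes of the related lists are named where they had at least 30 UMIs, up to 4 per list, apart from those at 0 or few UMIs named after their values were seen. One gene of these lists is not reported here. The members, lists and tests were chosen with earlier results of these data known. The alternatives tried were other UMI, mitochondrial and scaling limits, classes from the gate, thinning, leaving out plates or cells, no low-count filter, DESeq2 and a plate block.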

Additional observations from a re-analysis of the deposited data

Results flagged for a closer look

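In endothelial cells, Myh9 of the Gpr124 fl/fl CD31-gate plate, at 11.2 UMIs per 10000 from 7 UMIs in 2 cells, was flagged as an outlier beside the other 3 plates (6.70, 6.75 and 7.04). Its 95% counting interval, 4.52 to 23.2, includes these 3 values, so the gap lies within counting error. For normally distributed values, chance singles out about 1 in 20 groups of 4 in this way, and sums of so few UMIs need not follow that rule.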

How the results depend on the processing

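The summed genes kept their ratio between classes within the counting interval under the alternatives run, except with classes from the gate (log2 ratio 0.0931). All plates but the Gpr124 dEC/dEC CD31-gate plate held cells of both classes. The members called higher in pericytes were 4; they were 3 to 4 without one plate, 1 without the cells on shared barcodes, 0 with gate classes, 0 with thinned cells, 1 without the largest cells, 2 at a mitochondrial limit of 5%, 2 without the upper UMI limit (2 also without its 1 well), 1 with unscaled totals and 0 without the cells on barcodes that hold Acta2 in other plates. Each member tested was called in these settings, apart from Myh9 without one plate and the gate classes (6 tested). None could be tested with thinned cells or without the Acta2 barcodes. Acta2, Cald1 and Mylk passed the filter through the pericytes, and members that dropped out were untested, so these calls do not show stability. Genes called higher in pericytes were 36, with 15 without shared barcodes, 0 with gate classes, 5 thinned, 15 without the largest cells, 188 unfiltered, 23 with library totals and 6 without the Acta2 barcodes, and 24 to 38 without one plate. Those higher in endothelial cells were 15, with 8, 0 and 3 for shared barcodes, gate classes and thinning, 50 unfiltered, 9 with DESeq2, 46 with library totals, 3 without the Acta2 barcodes and 8 to 20 without one plate. With gate classes, edgeR called 0 genes while 7 had an unadjusted p under 0.05. With the plate as replicate block, all 4 members stayed called, Myh9 at an adjusted p of 0.0399, and 32 genes were higher in pericytes and 14 in endothelial cells. For the genotypes no paired fit could be made, because each is 1 suspension. In pericytes the summed ratio was 0.21, with -0.32 for gate classes, 0.56 without the upper limit -0.0328 without the Acta2 barcodes (3 cells), 0.38 with unscaled totals, 0.35 without shared barcodes, 0.38 thinned and 0.0487 at a mitochondrial limit of 5%; its interval left out equal levels with gate classes, without the upper limit, with unscaled totals and without shared barcodes. In endothelial cells it was -0.11, with 2.03 for gate classes. It was 0.20 to 0.23 in pericytes and -0.40 to 0.22 in endothelial cells without one plate, and no pericyte value exists without the Gpr124 dEC/dEC PDGFRB-gate plate. The causes were not tested. Depth limits most genes: 6 of the 10 were too low for the filter.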
